A study of Homo sapiens with 6 samples.

Results

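The regions described here are stretches of chromatin that were recovered by the NONO antibody in NONO-depleted cells and by the H3T11ph antibody in control cells. They are the NONO_KD regions on chromosomes 1 to 22 that overlapped an H3T11ph_NC region by at least 1 bp. The rule found 1886 of 43292 NONO_KD regions (4.36%), which lay on 1844 of 41692 H3T11ph_NC regions (4.42%). They are called shared regions below, and the other 41406 NONO_KD regions are called the other regions.

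CUT&Tag was performed in MDA-MB-231, an established triple-negative breast cancer cell line. In this assay an antibody tethers the Tn5 transposase to chromatin, and the DNA next to the antigen is cut out and sequenced. Control cells (NC, genotype WT) were profiled for NONO, H3T11ph and H3K27ac, NONO knockdown cells for NONO, and PKM2 knockdown cells for H3T11ph and H3K27ac. This gave 6 lists with 972622 regions, each from 1 library, so there were no replicates and condition and library cannot be told apart. The lists hold no expression values, and how far NONO fell in the knockdown was not measured here.

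NONO is an RNA- and DNA-binding protein of the nuclear paraspeckles that takes part in transcription and splicing. H3T11ph is histone H3 phosphorylated at threonine 11, a mark that the pyruvate kinase isoform PKM2 can place in the nucleus. H3K27ac, acetylated lysine 27 of the same histone, marks active promoters and enhancers. Alpha satellite repeats of the centromeres, the ribosomal RNA genes and the repeats near chromosome ends exist in many near-identical copies, so that a short read from one copy can be placed on another.

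The lists were of unequal size and form. NONO_NC held 87191 regions with a median width of 269 bp, which was also their narrowest width, and H3K27ac_NC held 556239 regions over 88.6 Mb with a median width of 112 bp. NONO_KD, H3T11ph_NC, H3T11ph_PKM2_KD (35720 regions) and H3K27ac_PKM2_KD (208488 regions) had median widths between 120 and 182 bp. For NONO and for H3K27ac the NC list and the knockdown list thus differed in form, the settings of each are not given in the sources used here, and overlap with them is reported as presence in a list, never as gain or loss. The commonest local background, set over the narrowest region width, came to 2.84 fragments per kb in NONO_KD and 3.35 in H3T11ph_NC. It stands for depth only if the background came from the same library, which is not given. All intervals below cover counting error only.

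Shared regions overlapped 149 of the 21156 promoter windows that RefSeq gives for GRCh38.p14, belonging to 137 genes. Each window runs from 250 bases before to 50 bases after a gene's start. The first 3 sequences below carry the highest NONO_KD folds among these promoters for separate regions, and MCM10, H2BC3 and RNF31 were chosen after their values were seen to show other kinds of promoter. All are written 5′ to 3′ on the gene's strand in lower case, and capitals mark the part inside the shared region.
SEPTIN10, chr2:109613917-109614216, minus strand: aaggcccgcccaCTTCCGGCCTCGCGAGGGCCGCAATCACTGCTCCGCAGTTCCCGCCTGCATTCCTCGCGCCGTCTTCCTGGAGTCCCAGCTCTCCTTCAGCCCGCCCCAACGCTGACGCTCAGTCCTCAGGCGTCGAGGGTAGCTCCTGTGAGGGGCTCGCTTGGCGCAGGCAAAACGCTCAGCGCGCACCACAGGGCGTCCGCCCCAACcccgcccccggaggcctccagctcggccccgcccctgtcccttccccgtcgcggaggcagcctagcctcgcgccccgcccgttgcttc
MED26, chr19:16628155-16628454, minus strand: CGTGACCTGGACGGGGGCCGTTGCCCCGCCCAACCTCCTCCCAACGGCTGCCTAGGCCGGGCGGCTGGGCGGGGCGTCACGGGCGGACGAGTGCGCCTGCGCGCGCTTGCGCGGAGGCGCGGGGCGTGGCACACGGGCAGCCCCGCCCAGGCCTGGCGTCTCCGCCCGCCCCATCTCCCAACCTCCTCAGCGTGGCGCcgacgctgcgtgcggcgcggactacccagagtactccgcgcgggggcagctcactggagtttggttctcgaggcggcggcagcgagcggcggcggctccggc
ANKRD27, chr19:32675131-32675430, minus strand: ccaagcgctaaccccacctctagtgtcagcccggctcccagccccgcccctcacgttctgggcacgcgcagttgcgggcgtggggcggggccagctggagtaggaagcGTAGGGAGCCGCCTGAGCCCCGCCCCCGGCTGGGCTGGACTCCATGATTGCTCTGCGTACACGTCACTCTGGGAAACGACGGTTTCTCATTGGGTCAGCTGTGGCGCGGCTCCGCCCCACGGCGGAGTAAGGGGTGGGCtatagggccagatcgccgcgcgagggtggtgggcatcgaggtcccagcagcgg
MCM10, chr10:13161308-13161607, plus strand: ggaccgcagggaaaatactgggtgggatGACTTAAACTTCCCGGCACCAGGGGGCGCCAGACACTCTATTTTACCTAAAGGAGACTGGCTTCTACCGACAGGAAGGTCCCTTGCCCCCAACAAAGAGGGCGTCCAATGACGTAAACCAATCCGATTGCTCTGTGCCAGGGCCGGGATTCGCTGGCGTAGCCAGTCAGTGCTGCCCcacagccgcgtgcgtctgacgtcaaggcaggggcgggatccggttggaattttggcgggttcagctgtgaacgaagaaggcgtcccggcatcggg
H2BC3, chr6:26043664-26043963, minus strand: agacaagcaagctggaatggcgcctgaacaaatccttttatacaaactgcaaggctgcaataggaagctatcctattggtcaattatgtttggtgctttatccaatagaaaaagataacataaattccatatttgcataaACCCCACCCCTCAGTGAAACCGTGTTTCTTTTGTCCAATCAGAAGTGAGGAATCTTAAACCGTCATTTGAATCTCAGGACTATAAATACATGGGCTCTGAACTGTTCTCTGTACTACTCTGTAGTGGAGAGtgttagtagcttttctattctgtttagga
RNF31, chr14:24146625-24146924, plus strand: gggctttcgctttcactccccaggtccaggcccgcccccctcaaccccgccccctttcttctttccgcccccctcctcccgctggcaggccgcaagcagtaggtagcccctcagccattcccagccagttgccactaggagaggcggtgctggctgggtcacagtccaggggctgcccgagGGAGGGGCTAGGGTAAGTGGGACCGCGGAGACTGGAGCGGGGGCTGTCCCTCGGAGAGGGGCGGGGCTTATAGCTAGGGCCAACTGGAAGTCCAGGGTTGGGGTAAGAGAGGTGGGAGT

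The promoter windows of SEPTIN10, MED26 and ANKRD27 were rich in G and C, at 72%, 77.3% and 69.3%, and each held the letters GGGCGG on a strand. Of these 3 only ANKRD27 also held CCAAT. The window of MCM10, a DNA replication factor, was at 59.7% and held both. That of the histone gene H2BC3 was at 38.7%, held CCAAT and TATAA but not GGGCGG, and had 3 CpG dinucleotides, against 45 in MED26. RNF31, a subunit of a ubiquitin ligase, shares its promoter with the proteasome activator gene PSME2. Its window, at 67.3%, held GGGCGG and TATAA, and its shared region overlapped no H3K27ac_NC region. Across the 149 windows the median content of G and C was 64.7%, against 64% in the 432 windows that only other NONO_KD regions overlapped and 62.7% in all windows.

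Short motifs were searched on both strands of these windows. GGGCGG stood in 82.6% of the windows with a shared region, in 68.1% of those with another NONO_KD region alone and in 56.6% of all. CCAAT stood in 53% of them, against 41.7% and 34.4%. TATAA stood in 13.4%, against 12.7% and 16.6%. Windows of 1 gene can overlap, so they are not independent, and a match says only that the letters are present.

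The shared regions were selected on measured values, the positions called in NONO_KD and in H3T11ph_NC, and the values of these 2 lists are given as a description. Each deposited region carries a fold, read here as the pileup of fragments at its summit over the local background, with the same constant added to both. The fold is therefore not the plain ratio of pileup to background. Whether that background came from the same library or from a control is not given. The NONO_KD fold of the shared regions ran from 1.41 to 114 with a median of 6.85, while that of the other regions had a median of 33.6. Their median width was 163 bp against 123 bp, and the widest spanned 5489 bp. Where these were recovered, the shared regions had at the summit a median pileup of 22 fragments over a background of 0.752, and the other regions 46 fragments over 0.278. Shared regions were thus lower in fold, wider and set on a higher background than the rest of the list. The 1844 H3T11ph_NC regions that they met were likewise lower in fold than the other H3T11ph_NC regions, with medians of 6.5 and 16.8.

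By the rule the regions of both antibodies overlap, so at these widths their closeness is largely fixed in advance and is given as a description. The summits were a median of 64 bp apart, and 807 of the 1886 pairs (42.8%) had them within 50 bp. The H3T11ph_NC region covered 640 NONO_KD regions (33.9%) completely, and the median NONO_KD region was covered over 84.8% of its width. Folds of both libraries went together moderately over the 1886 regions, with a Pearson r of 0.52 on the log2 scale. The local backgrounds went together more closely, with an r of 0.94 over the 1859 regions for which both were recovered. These correlations run across regions of the same genome, which share sequence and copy number, and are given as a description. At the edge of the rule, 65 shared regions had only 1 to 10 bp in common with H3T11ph_NC and a median fold of 19.6, and 32 other regions missed it by at most 10 bp and had a median fold of 17.1.

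**Figure D1:**
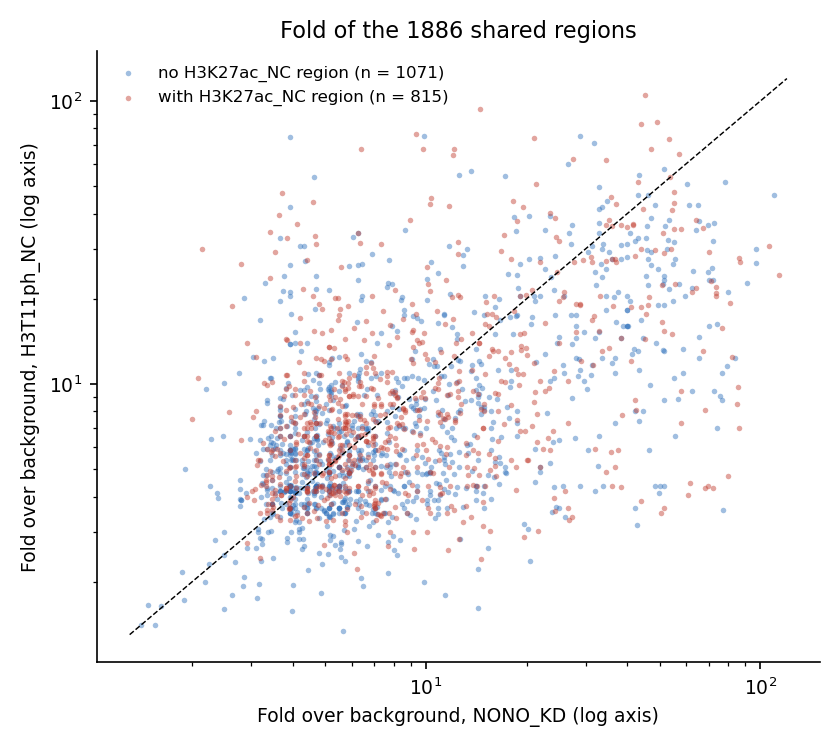
Fold over background of each shared region in NONO_KD (horizontal, log axis) and in H3T11ph_NC (vertical, log axis), coloured by overlap with H3K27ac_NC, with a dashed line of equal fold. Most points lie at low folds in both libraries, 1060 of 1886 lie below the line, and regions with and without acetylation are mixed.

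Ranked by NONO_KD fold, a few shared regions were very strong in that library, while their H3T11ph_NC folds varied. The highest NONO_KD fold was at chr2:109614005-109614204, at the shared promoter of SEPTIN10, a septin of the cytoskeleton, and SOWAHC, within the annotated span of RANBP2. This region had a region in all 6 lists, with folds of 114 in NONO_KD, 60.3 in NONO_NC, 24.2 in H3T11ph_NC, 75.7 in H3T11ph_PKM2_KD, 31.9 in H3K27ac_NC and 42.8 in H3K27ac_PKM2_KD. MED26, a subunit of the Mediator complex, was also in all 6 lists, with a fold of 86.5 in NONO_KD and 28 in H3T11ph_NC, and it was low in NONO_NC at 5.03. At ANKRD27, which acts in endosomal trafficking, and its neighbour RGS9BP the NONO_KD fold of 86.1 stood beside 6.98 in H3T11ph_NC, and NONO_NC had no region.

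Other strong sites belonged to these 2 lists alone. RBPJL, a relative of the Notch pathway factor RBPJ, had folds of 110 in NONO_KD and 46.6 in H3T11ph_NC at chr20:45317521-45317657 and no region in the other 4 lists. The same held in the body of ERCC3, the XPB helicase of the general transcription factor TFIIH, with 96.9 and 26.7, and in the body of FAM117B, with 83.7 and 12.4. A region in 2 lncRNA genes on chromosome 6 (97 and 29.9) and one outside any gene on chromosome 5 (79.8 and 21.1) completed the 5 highest of this kind. In the bodies of CLTCL1, a clathrin heavy chain, LMF1, ANO9 and ARHGAP39, where further lists also had a region, the NONO_KD folds were 106, 91.3, 86.7 and 85.7.

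By how many lists they recurred in, the shared regions were spread widely. Beyond the 2 lists that define them, 426 (22.6%) were in no other list, 426 in 1, 534 (28.3%) in 2, 370 (19.6%) in 3 and 130 (6.89%) in all 4. Of the other regions 34090 (82.3%) were in none of these 4 lists and 44 (0.106%) were in all. The strongest of the 130 regions found everywhere, by the lower of the folds in NONO_KD and H3T11ph_NC, were at ZNF865, in the transcribed pseudogene AFG3L1P, in PNPLA7, at MED26 and in FAM120B. In AFG3L1P the H3T11ph_NC fold of 105 was above the NONO_KD fold of 45.2, and in FAM120B the NONO_NC fold of 70.7 was above both, at 27.7 and 27.

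The question for each further list was whether a shared region was found in it more often than another NONO_KD region. NONO in control cells had a region at 587 of the 1886 shared regions (31.1%, 95% Wilson interval 29.1 to 33.3) and at 3.22% of the other regions, with 4.43% over all NONO_KD regions. The difference was 27.9 percentage points (95% Newcombe interval 25.9 to 30). The rest of the shared regions, the larger part, were found by the NONO antibody in the knockdown library and had no region in the NC library. H3T11ph after PKM2 knockdown was found at 620 shared regions (32.9%, 30.8 to 35) and at 1.3% of the others, against 2.67% over all, a difference of 31.6 points (29.5 to 33.7). Of the shared regions 297 (15.7%) had both, against 109 of the others (0.263%).

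As a plain share of the shared regions, acetylation was found more often than either, but its lists also covered more of the genome. H3K27ac_NC covered 88.6 Mb and H3K27ac_PKM2_KD 62.1 Mb, against 24.7 Mb for NONO_NC and 4.77 Mb for H3T11ph_PKM2_KD. H3K27ac_NC overlapped 815 shared regions (43.2%, 41 to 45.5) and 10.4% of the other regions, with 11.8% over all, a difference of 32.8 points (30.6 to 35.1). H3K27ac_PKM2_KD overlapped 1102 (58.4%, 56.2 to 60.6) and 8.52% of the others, with 10.7% over all, a difference of 49.9 points (47.6 to 52.1). The shared regions were in both acetylation lists in 735 cases and in neither in 704 (37.3%). Of the other regions 3.85% were in both and 84.9% in neither. There were 367 shared regions (19.5%) in the PKM2_KD list and not in the NC list, and 80 (4.24%) the other way round. Among the other regions the order was the opposite, with 4.67% and 6.54%.

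**Figure D2:**
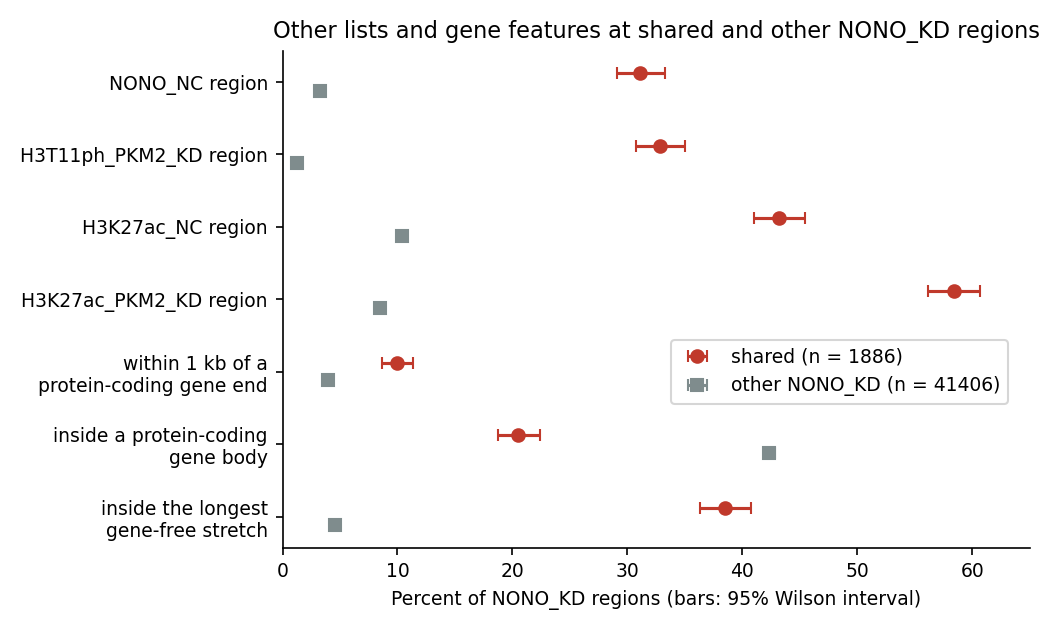
Percent of shared regions (circles, n = 1886) and of other NONO_KD regions (squares, n = 41406) that overlap each further list or gene feature, with 95% Wilson intervals. Shared regions lie to the right in every row except the body of protein-coding genes, where they are at 20.5% and the others at 42.3%.

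Width and acetylation divided the shared regions into 4 classes. There were 673 narrow regions (at most 195 bp) without an H3K27ac_NC region, 472 narrow with one, 398 wide without and 343 wide with one. In all 741 shared regions (39.3%) were wide, that is over 195 bp, against 3.75% of the others and 5.3% of all NONO_KD regions, and width belongs to the values that chose them, since a wider region meets another more easily. The 4 median folds were close to each other, between 6.25 and 7.45. Shared regions with an H3K27ac_NC region also had one in H3K27ac_PKM2_KD in 89.4% of narrow and 91.2% of wide cases. Among the other NONO_KD regions these shares were 35.2% and 60.4%.

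Within each width class the shared regions met the further lists more often, but the split does not hold width equal. Wide shared regions had median widths of 308 bp without and 323 bp with H3K27ac_NC, against 243 and 254 bp for the others. Among narrow regions H3K27ac_NC was found at 41.2% of the shared and 10% of the others, and among wide ones at 46.3% and 20.5%. For NONO_NC these shares were 23.2% and 2.85% in narrow regions and 43.3% and 12.8% in wide ones. At the threshold the 3 strongest regions of 195 bp had folds of 8.07, 5.59 and 4.87, and the 3 next above that width had 3.58, 10.5 and 7.04.

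The place of the shared regions differed from that of the rest of the list. Of the shared regions 187 (9.92%, 8.65 to 11.3) lay within 1 kb of an end of a protein-coding gene, against 3.97% of the others and 4.23% of all, a difference of 5.94 points (4.66 to 7.38). Inside the body of a protein-coding gene, away from its ends, lay 387 (20.5%, 18.8 to 22.4) against 42.3% of the others and 41.4% of all, a difference of -21.8 points (-23.6 to -19.9). Nearness to a gene end belonged to the narrow regions. Of these 12.9% of the shared and 3.87% of the others were at a gene end, while among wide regions it was 5.26% and 6.63%, a difference of -1.37 points (-3.3 to 0.805). Narrow regions with acetylation were at a gene end most often, at 17.6% against 9.18% of the other regions of that class.

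At the gene ends, 230 protein-coding genes had a shared region within 1 kb. After SEPTIN10, SOWAHC, RBPJL, MED26, ANKRD27 and RGS9BP the highest folds belonged to MYL12B, a myosin regulatory light chain (79.9 in NONO_KD, 4.73 in H3T11ph_NC, 29.7 in H3K27ac_NC), and CHCHD5, a mitochondrial protein (73.6, 22 and 17.2). They were followed by SLC25A37, the mitochondrial iron carrier mitoferrin 1 (70.4, 29.1 and 11.6), and PGAM1, a phosphoglycerate mutase of glycolysis (68.4, 8.1 and 5.43). None of the last 4 except SLC25A37 had a NONO_NC region, and PGAM1 alone of them had one in H3T11ph_PKM2_KD, with a fold of 25.5.

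Gene groups were read by a shared region within 1 kb of an end or in the body, which held for 536 of 18973 protein-coding genes (2.83%). Of 69 canonical histone genes 8 had one (11.6%). These were H2BC18 and H3C13, the group of H2AC20, H2AC21 and H2BC21, H2BC3, and the pair H2AC11 and H2BC11, so that the 8 genes rested on 4 regions. H2BC3 had the highest fold, 40.9 in NONO_KD and 18.7 in H3T11ph_NC, and the region between H2AC11 and H2BC11 was weak in both, at 5.02 and 4.26. Of 497 zinc finger genes of the ZNF series 12 had one (2.41%), near the share of all genes, led by ZNF865 (55.3 and 47.5) and ZNF682 (48.4 and 29.8). At ZNF682 the NONO_NC fold was 129.

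Ribosomal protein genes had 2 of 80 (2.5%), RPS15 and RPS29. The RPS29 region also covered RN7SL1, so these genes cannot be told apart by position. No shared region was found at any of 386 olfactory receptor, 53 protocadherin or 39 HOX genes, while a NONO_KD region of any kind lay at 47 (12.2%), 37 (69.8%) and 6 (15.4%) of them, against 45.1% of all protein-coding genes. The 7 genes of the NONO family and the paraspeckles on these chromosomes, among them the partners of NONO, and PKM had NONO_KD regions and no shared region. KAT5, which encodes the acetyltransferase TIP60, had neither. At a share of 2.83% over all genes, the absence of a shared region from a list of 7 genes or from a single gene says nothing about them.

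In gene bodies the shared regions came in clusters at a few genes. Of the 320 genes with one in the body, 279 had exactly 1. DUX4, a homeobox gene within the D4Z4 repeats near the end of chromosome 4, had 8 within 12.1 kb, with folds from 2.77 to 6.26. BRF1, a subunit of the RNA polymerase III factor TFIIIB, and RPH3AL, an effector of Rab proteins, had 7 each, with median folds of 4.32 and 3.95. ABR and DLGAP2 had 4 each, with median folds of 7 and 7.45. In RPH3AL 6 of the 7 had an H3K27ac_NC region, and in DUX4 and BRF1 2 of 8 and 1 of 7. The highest fold in any of these 5 genes was 19.6, in DLGAP2.

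The shared regions lay on the chromosomes very unevenly. They made up 17.5% of the NONO_KD regions of chromosome 19 (293 of 1673, 15.8 to 19.4) and 14.2% of those of chromosome 21 (84 of 591), but 1.48% on chromosome 3 (43 of 2916) and 1.52% on chromosome 13. When the chromosomes were divided into bins of 1 Mb, 26 bins with at least 10 shared regions held 858 of them (45.5%), and 387 bins held exactly 1. No genome sequence was used, so assembly gaps and centromeres were replaced by stand-ins. Within 1 Mb of a stretch of over 1 Mb that had no region in any list lay 113 shared regions (5.99%, 5.01 to 7.16) against 0.819% of the others and 1.04% of all, a difference of 5.17 points (4.18 to 6.34). Of these 113 regions 97 were beside a single stretch on chromosome 1.

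A second stand-in, added after the data were seen, was the longest stretch of each chromosome without a gene. It lies in the region of the centromere on most chromosomes. These stretches held 726 shared regions (38.5%, 36.3 to 40.7) against 4.56% of the others and 6.03% of all, a difference of 33.9 points (31.8 to 36.2). Of all NONO_KD regions inside them 27.8% were shared, and of those outside 2.85%. Just 6 chromosomes, 1, 5, 6, 7, 10 and 19, held 675 of the 726. Regions within 1 Mb of the outermost region of a chromosome were also more frequent, at 9.65% (182 of 1886) against 2.6%, a difference of 7.05 points (5.79 to 8.48).

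**Figure D3:**
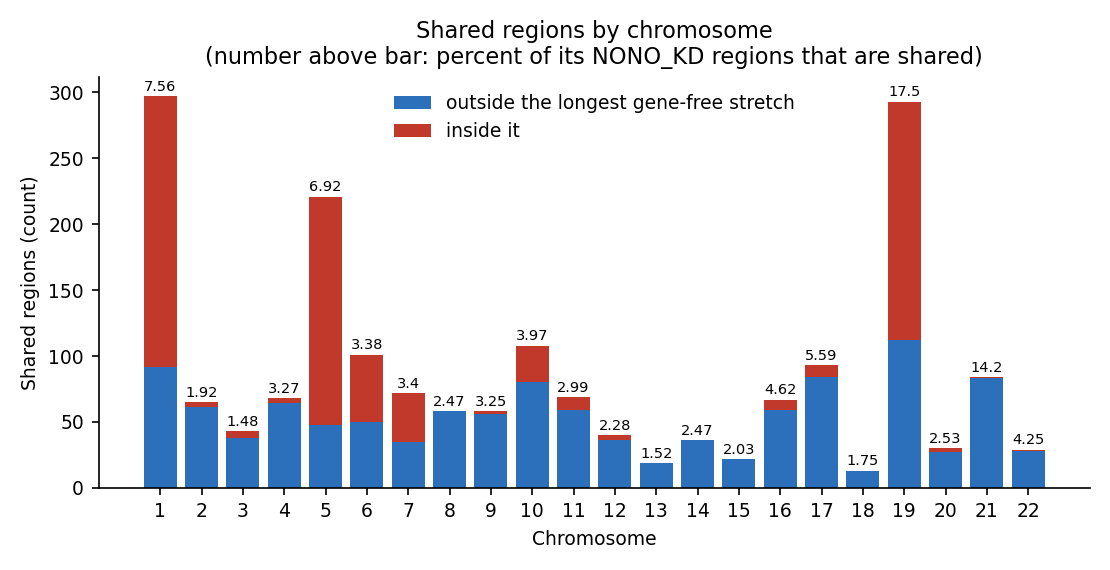
Number of shared regions on each chromosome, divided into those inside (red) and outside (blue) its longest gene-free stretch, with the percent of the NONO_KD regions of the chromosome that are shared above each bar. Chromosomes 1, 5 and 19 hold 205, 173 and 181 shared regions inside these stretches, while chromosomes 8, 13, 14, 15 and 18 hold none there.

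Acetylation in the gene-free stretches differed between the 6 chromosomes with most shared regions there, which were set side by side after their values were seen. On chromosomes 1, 5 and 19, whose alpha satellites are known to be close in sequence, 334 of 559 shared regions had an H3K27ac_NC region (59.7%, 55.6 to 63.7) and 476 had one in H3K27ac_PKM2_KD (85.2%, 82 to 87.9). On chromosomes 6 and 7 it was 3 of 88 (3.41%, 1.17 to 9.55) and 11 of 88 (12.5%, 7.12 to 21). The median folds were alike, at 5.13, 5.34 and 5.48 on chromosomes 1, 5 and 19 and 4.69 on both 6 and 7. On chromosome 10 25 of 28 had H3K27ac_NC. The other NONO_KD regions of the same stretches had H3K27ac_NC in 26.2%, 21.7% and 27.5% on chromosomes 1, 5 and 19 and in 3.11% and 1.59% on 6 and 7. Because reads of these copies may have been placed on one another, regions of these stretches are not independent of each other.

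Outside the gene-free stretches 1160 shared regions were left, and each difference kept its direction. Here 16.1% lay within 1 kb of a protein-coding gene end against 4.16% of the others, 40.6% overlapped NONO_NC against 3.09%, and 38.2% overlapped H3K27ac_NC against 10.3%. In the gene body lay 33.4% against 44.3%, a difference of -11 points (-13.7 to -8.17). Their median fold was 10.7, against 5.21 for those inside.

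Most shared regions of chromosome 21 lay at ribosomal genes. The 45S genes, transcribed by RNA polymerase I into the precursor of the large ribosomal RNAs, are annotated there in 3 copies, and 69 of the 84 shared regions lay within 50 kb of them. Of these only 8 were inside a 45S gene and 61 outside, mostly in the spacer that follows it. The NONO_KD folds ran from 1.41 to 16 (median 6.32) and those of H3T11ph_NC from 1.4 to 11.1 (median 4.42). Of the 22 summits at RNA45SN2, 10 lay within 60 bp of the distance of a summit at RNA45SN3, 1 of them inside the gene, and the rest did not. Only the distance from the gene start was compared, so a counterpart at another distance was not counted. For example, a region of 449 bp had its summit 30502 bp from the start of RNA45SN2. One of the same width lay at 29858 bp at RNA45SN3. RNA45SN1 was not compared in this way. Nearly all, 65 of 69, had a NONO_NC region (median fold 10.1) and 27 one in H3T11ph_PKM2_KD, but only 6 had H3K27ac_NC and 4 H3K27ac_PKM2_KD. Several of these shared regions lay on the same NONO_NC region, and some on the same H3T11ph_NC region, whose fold was then counted for each.

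The 5S genes, transcribed by RNA polymerase III, lie in an array of 17 annotated copies on chromosome 1, with 19 shared regions. Of these 11 overlapped a 5S gene, each a separate one. All 19 had a NONO_NC region, with folds from 10.1 to 16.6, above the NONO_KD folds of 2.48 to 8.25 and the H3T11ph_NC folds of 1.97 to 4.94. The array held only 10 NONO_NC regions, so several shared regions lay on the same one. Its fold is that of its own summit and was counted for each of them. The shared regions at RNA5S17 also lay on the same H3T11ph_NC region, whose fold was counted for each. Acetylation was found at 1 of the 19 shared regions in NC and at 7 in PKM2_KD. As both NONO lists differ in form and each has its own depth, the order of these folds is a description.

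**Figure D4:**
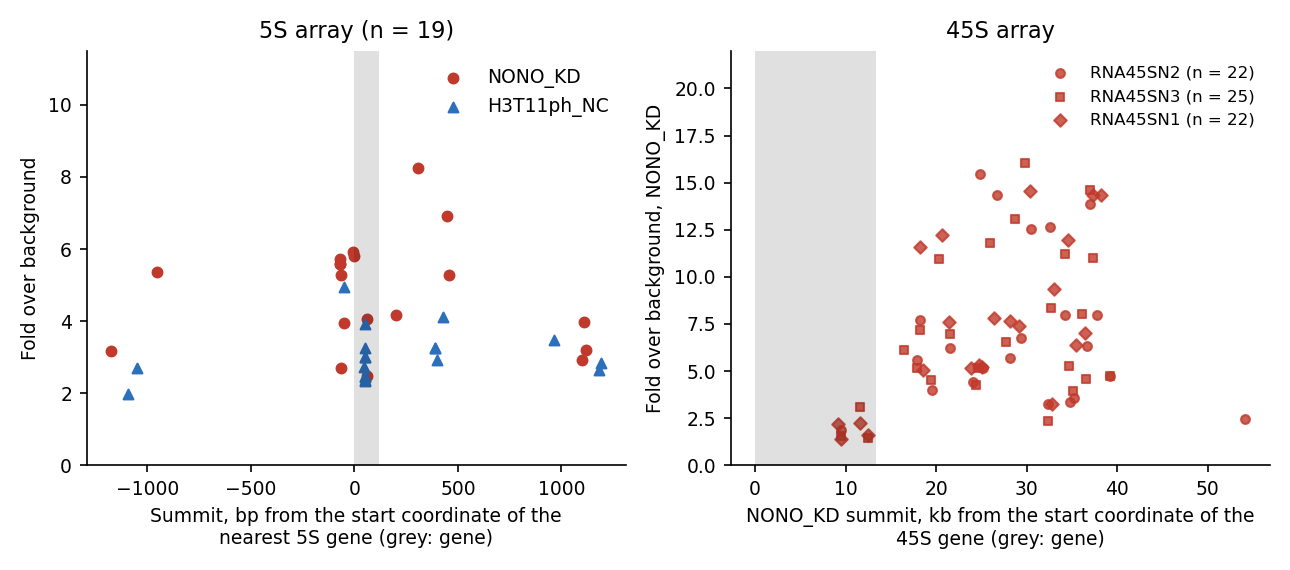
Left, summits of the 19 shared regions of the 5S array by distance from the start coordinate of the nearest 5S gene (bp) and fold over background, in NONO_KD (circles) and H3T11ph_NC (triangles). Right, NONO_KD summits of the 69 shared regions of the 45S array by distance from the start coordinate of the 45S gene (kb) and fold, with a symbol for each copy. Grey bands mark the genes. The 8 regions inside the 45S genes have folds from 1.41 to 3.11, below most of the 61 others.

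Other short non-coding genes were among the shared regions too, and are named after their values were seen. Transfer RNA genes, also transcribed by RNA polymerase III, had 9 shared regions at 10 of 425 genes (0.477% of the shared regions, 0.251 to 0.905, against 0.0266% of the others). Their NONO_KD folds ran from 3.73 at TRT-TGT3-1 to 28.8 at the pair TRY-GTA2-1 and TRA-AGC8-1, and 7 of the 9 were wide. NONO_NC had a region at 7 of them and H3T11ph_PKM2_KD at 6, and neither acetylation list had one at any. RN7SL1 and RN7SL2, the RNA of the signal recognition particle, had folds of 10.6 and 11.7 in NONO_KD, 11.6 and 9.95 in H3T11ph_NC and 10.9 and 10.6 in H3T11ph_PKM2_KD. H3K27ac_NC had no region at either, and H3K27ac_PKM2_KD had one at RN7SL1 with a fold of 2.18. SNORD3B-1 and SNORD3D, copies of the U3 small nucleolar RNA that takes part in processing of the ribosomal precursor, had 4.42 and 6.69 in NONO_KD against 20.6 and 26.9 in NONO_NC, and neither had acetylation. The transfer RNA, RN7SL and SNORD3 genes are few and have near-identical copies. Acetylation was not absent from all short non-coding genes. The snRNA gene LOC124904144 had folds of 9.31 in H3K27ac_NC and 12.7 in H3K27ac_PKM2_KD. The microRNA genes MIR4519 (14.85 and 16.13) and MIR632 (20.3 and 36.87) had both as well, and MIR8078 and MIR639 had neither.

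The widest shared regions lay elsewhere. The lncRNA gene CYKILR on chromosome 19 held 22 shared regions, among them 3 of the 5 widest of all, at 5489, 4785 and 2756 bp. All 22 had a region in NONO_NC and in both acetylation lists, and 15 in H3T11ph_PKM2_KD. These 3 had the same NONO_NC fold of 20.96, so shared regions here can lie on the same NONO_NC region. The folds at these 3 were 7.31, 24.2 and 7.83 in NONO_KD and 3.42, 3.96 and 4.26 in H3T11ph_NC. Another of the widest lay in RPH3AL, 2857 bp with 3.41 in NONO_KD and 23.7 in H3T11ph_NC. The last lay in the gene-free stretch of chromosome 4, 2613 bp with 6.23 and 16.6, and had no acetylation.

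The local background rose with sharing. Among NONO_KD regions at the commonest background of 0.278 fragments 1.23% were shared (361 of 29344). The share was 5.62% up to 2 times that background, 10.7% from 2 to 5 times, 17.5% from 5 to 20 times and 37.3% (350 of 938) above 20 times. A background over 2 times the commonest was found at 60.4% of the shared regions (1130 of 1871) against 13.8% of the others and 15.9% of all. The part of the background in the overlap was not tested. The pileup itself had no such simple relation, with 11.6% of regions shared under 10 fragments, 2% between 40 and 80, and 63.5% (54 of 85) from 160 upwards.

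**Figure D5:**
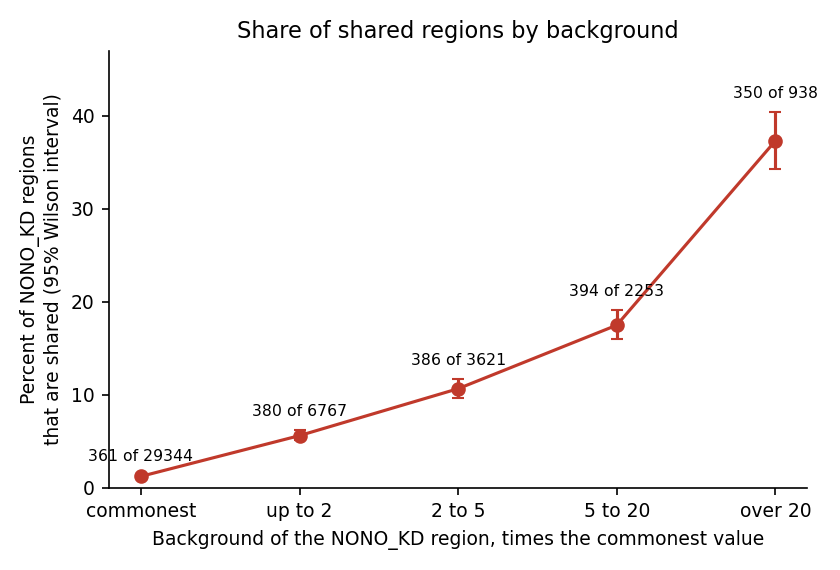
Percent of NONO_KD regions with a recovered background that are shared, in 5 bands of local background, given as times the commonest value, with 95% Wilson intervals and counts. The percent rises in each band, from 1.23% at the commonest background to 37.3% above 20 times.

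Where the background was recovered and not raised, 741 shared regions remained to compare with 35370 others. H3K27ac_NC overlapped 37.5% of them against 9.74%, H3K27ac_PKM2_KD 51.3% against 6.89%, NONO_NC 16.6% against 2.33% and H3T11ph_PKM2_KD 17.7% against 0.783%. Within 1 kb of a gene end lay 4.72% against 2.9%, a difference of 1.82 points (0.5 to 3.6). At raised background 13.3% of the shared and 10.6% of the other regions were at a gene end, a difference of 2.68 points (0.649 to 4.92). Thus within either level of background the excess at gene ends was smaller than in the pooled regions, while the differences for NONO_NC, H3T11ph_PKM2_KD and both acetylation lists remained above 14 points.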

How the data were processed

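CUT&Tag was read on an Illumina sequencer. The submitters' processing notes name the build hg38, FastQC 0.11.9, cutadapt 1.18, SAMtools 1.3.1, MACS2 2.1.1.20160309 and DESeq2. The aligner, duplicate handling and control are not given in the sources used here. The authors deposited 1 peak list per library, with a score, a fold over background (a ratio), and p and q as −log10 values, and the other deposited columns are positions, names and summit offsets.

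Regions on chromosomes 1 to 22 counted as overlapping when they had 1 bp or more in common. Shares have 95% Wilson intervals and differences 95% Newcombe intervals. No p-value was computed, as each group had 1 library. Pileup and background were recovered from the deposited fold and −log10 p (tolerance 0.002, where −log10 p was below 300), which succeeded for all 1871 shared regions tried and left out 15. The search and the overlaps were tested on simulated data. Genes came from RefSeq, GRCh38.p14, after 718 rows on scaffolds or patches were left out. Either end of a gene counted, since that table has no strand, and the 5′ ends of RefSeq promoters entered as an alternative. Base composition was planned for all regions, but was computed only for RefSeq promoter windows. Genes were named by fixed ranks: the 10 highest folds, the 5 widest, 3 on each side of the limit between widths up to 195 bp and above, 5 in all lists, 5 in these 2 lists alone, the 10 genes with the highest fold at an end, the 5 with most regions in the body, and the members of gene lists. MCM10, RNF31, PSME2, CYKILR and the short non-coding RNA genes were named after their values were seen. The regions and gene lists were chosen with earlier results of these data known. Alternatives were thresholds, overlaps, windows, widths and places. Python 3.11.15, pandas 2.3.3, scipy 1.17.1 and statsmodels 0.14.6 were used.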

Additional observations from a re-analysis of the deposited data

Results flagged for a closer look

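The reported comparisons were made on chromosomes 1 to 22, and chromosome X entered only as an alternative. On it 13 of 1057 NONO_KD regions (1.23%, 95% Wilson interval 0.72 to 2.09) overlapped an H3T11ph_NC region, and 2 of the 13 also overlapped H3K27ac_NC. They are given because they are signal outside the chromosomes of the report, above a count of 0.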

How the results depend on the processing

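The share of NONO_KD regions that overlapped H3T11ph_NC and 8 comparisons of shared with other regions were recomputed, 67 values in all. Of these 24 stayed within the 95% interval of the reported value, 42 moved beyond it and 1 reversed. Differences are in percentage points, shared minus other. Adding chromosome X kept all 7 values recomputed with it within their intervals. With a −log10 q of at least 5 in every list the share was 2.89%, the median fold 9.83, and the differences 29.2 for H3K27ac_NC, 32.6 for NONO_NC, 9.41 for gene ends and -19.4 for gene bodies. When 50% of the NONO_KD region had to be covered, the share was 3.38%, the fold 6.41, and the differences 35.4 for H3K27ac_NC, 34 for H3T11ph_PKM2_KD and -25.8 for gene bodies. With windows of 200 bp on summits the share was 4.05%, and the differences 24.3 for H3K27ac_NC, 17 for NONO_NC and 26.9 for H3T11ph_PKM2_KD. In regions of at most 195 bp they were 20.4 for NONO_NC, 25.3 for H3T11ph_PKM2_KD and 9.06 for gene ends. In regions over 195 bp they were 25.8 for H3K27ac_NC, 30.5 for NONO_NC, 36 for H3T11ph_PKM2_KD, -18.7 for gene bodies, 3.44 near a stretch without regions, and -1.37 for gene ends, which reversed, and the cause was not tested. Reading acetylation from H3K27ac_PKM2_KD gave 49.9, and 100 kb in place of 1 Mb around stretches without regions gave 1.53. Around gene ends, 2.5 kb in place of 1 kb gave 4.79.

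The following were chosen after seeing the data. At a background of at most 2 times the commonest the share was 2.05%, the fold 7.33, and the differences 27.8 for H3K27ac_NC, 28.8 for width, 14.3 for NONO_NC, 16.9 for H3T11ph_PKM2_KD, 1.82 for gene ends, -17.5 for gene bodies and 2.76 near a stretch without regions. Outside the longest gene-free stretches the share was 2.85%, the fold 10.7, and the differences 27.9 for H3K27ac_NC, 37.5 for NONO_NC, 12 for gene ends, -11 for gene bodies and 0.635 near a stretch without regions. The longest gene-free stretch in that stretch's place gave 33.9. With the 5′ ends of RefSeq promoters in place of both gene ends, 9.7% of the shared and 3.27% of the other regions lay within 1 kb. That difference was 6.43.

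No paired analysis was possible because the 6 groups hold 1 sample apiece. The base composition of all regions and true distances to gaps and centromeres were not run, as no genome was used. Leaving out a library was not possible, depth limits weak regions to those past the authors' threshold, and regions in repeats are not independent.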
